A study of Sus scrofa with 6 samples.

Results

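The antioxidant and glutathione-thioredoxin genes of the ventricle were compared between minipigs with constriction of the descending aorta (DAC) and sham-operated minipigs. The set was given as 41 gene symbols, and 36 of them were found by symbol among the 13288 genes of the expression table. The rule for the members is a list of names by function and uses no measured value. The list was chosen with earlier results of these data known. RNA of ventricular tissue was sequenced from 3 sham and 3 DAC male Tibetan minipigs, 1 library for each animal, and the values are FPKM (fragments normalized to transcript length and to the mapped fragments of the library). Both groups underwent thoracotomy, and the aorta was narrowed by sutures in the DAC group alone. The tissue was taken weeks later, when the study classed the constricted hearts as failing with their ejection fraction preserved. The sham animals are numbered 1 to 3 and the DAC animals 4 to 6, and a value with ± is the mean and SD of a group (n = 3).

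Mitochondria, NADPH oxidases and other enzymes of the heart release superoxide and hydrogen peroxide. Superoxide dismutases turn superoxide into peroxide, which catalase, the glutathione peroxidases and the peroxiredoxins remove. The glutathione peroxidases and the peroxiredoxins do so with electrons that come through glutathione or thioredoxin from NADPH. The transcription factor NRF2 (gene NFE2L2), held low by KEAP1, drives many of these genes, and cardiomyocytes, with their dense mitochondria, depend on the mitochondrial branch in particular.

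In the DAC myocardium, 7 of the 35 members tested were differentially expressed genes (DEGs) at the threshold of the study, an unadjusted P under 0.05. Only the threshold is taken from the study, whose paper names no test for its DEGs, so its calls may differ. GCLM, HMOX2, TXNIP and NNT were downregulated. SRXN1, GPX8 and CYBA were upregulated. The changes of their group means lay between -32.3% for GCLM and 55.3% for CYBA. The test was limma's moderated test on log2(FPKM + 1), run on the 11029 genes that reached 1 FPKM in 3 or more samples, and GSS was the member left out by this filter. Of all genes tested, 8.51% were DEGs, 3.25% upregulated and 5.27% downregulated, and 20% of the members were. After Benjamini-Hochberg adjustment over all genes tested, no member had an adjusted P under 0.05, and the smallest adjusted P from limma among the members was 0.505.

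The sham and DAC samples did not overlap in 9 members, 6 of them lower and 3 higher in the DAC group. Over all genes tested the groups did not overlap in 14.9%, with the DAC samples lower in 8.91% and higher in 6.01%. The mean of log2(FPKM + 1) was lower in the DAC group for 24 of the 35 members, against 53.4% of all genes tested. The median log2 fold change was -0.10 over the members and -0.016 over all genes tested. With mitochondrially encoded genes left out, 20 of the 35 members were lower, against 45.7% of all genes tested, and the medians were -0.056 and 0.020. After quantile normalization, 20 members were lower, against 49.1% of all genes tested, and the medians were -0.050 and 0.0047. An exact two-sided permutation test of 3 samples against 3 cannot give a P under 0.1, so the separate groups below all sit at that limit.

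**Figure D1:**
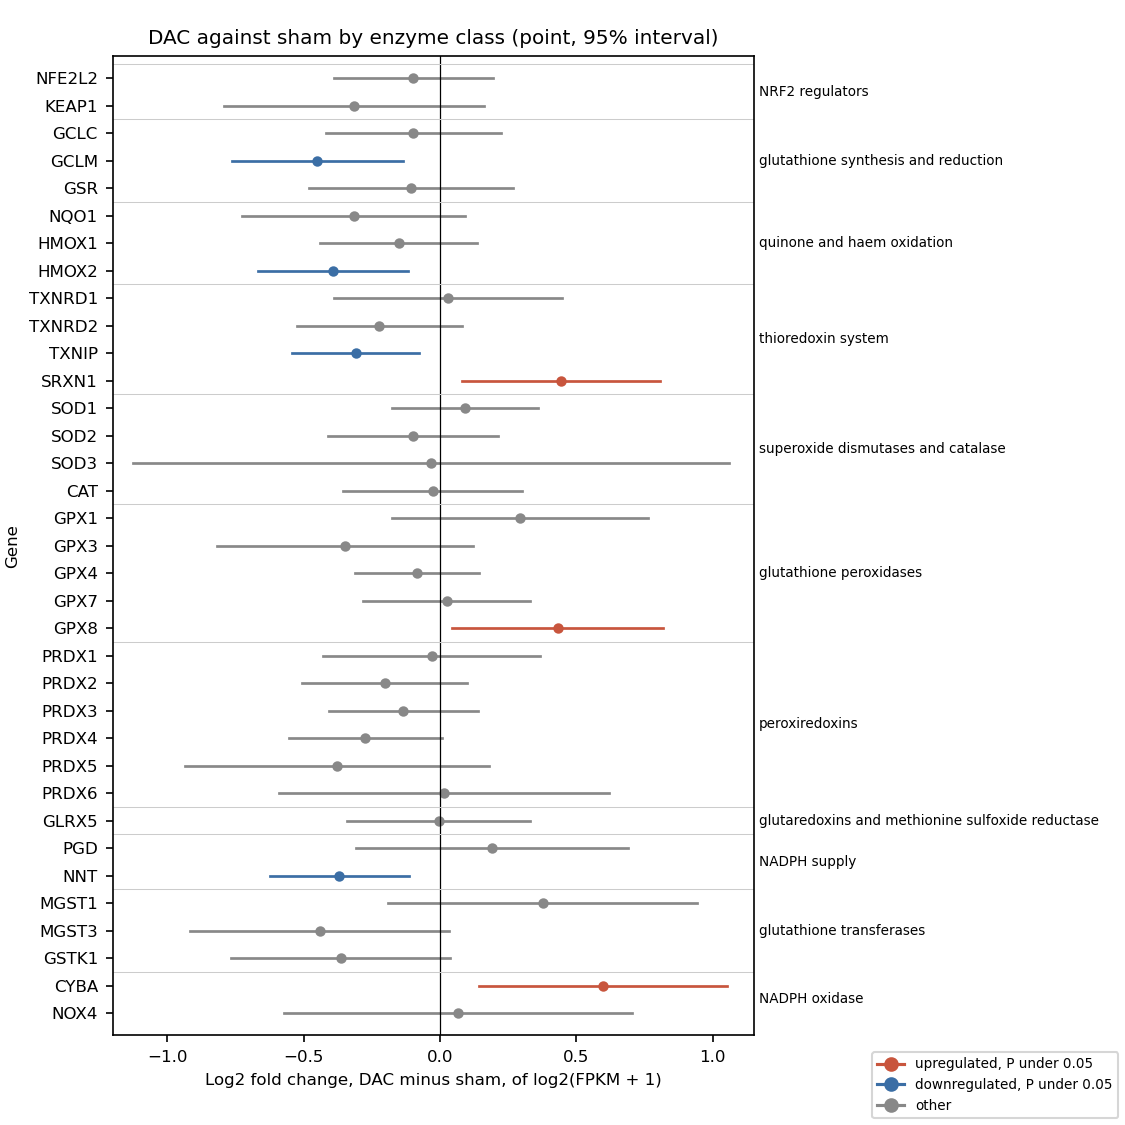
Log2 fold change of log2(FPKM + 1), DAC minus sham, for the 35 members tested, ordered by enzyme class (point, with the 95% interval of limma's moderated test as the bar; n = 3 per group). The intervals of GCLM, HMOX2, TXNIP and NNT lie below 0 and those of SRXN1, GPX8 and CYBA above 0.

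The table held enough other readouts to place the samples. The sum of FPKM was between 281377 and 308771, and the highest sum was that of DAC 5. Mitochondrially encoded genes made up 24% to 25.3% of it in the sham samples, 27.1% and 27.2% in DAC 6 and 4, and 32.8% in DAC 5. Of 12 cardiomyocyte markers 9 were in the table, and 1 of these was downregulated. The summed FPKM of the 9 was 14900 to 15510 in the sham group and 14090 to 16980 in the DAC group. All 11 fibroblast markers were in the table with none at 0, 5 were upregulated, and their summed FPKM was 513 to 589 in the sham and 722 to 827 in the DAC samples. Of 10 endothelial markers, 2 were upregulated and 2 downregulated, and the sum was 155 to 215 in the sham and 136 to 204 in the DAC samples. In bulk tissue, fewer cells of a type and less RNA per cell cannot be told apart. The part of cell makeup and of the mitochondrial share in the changes below was not tested. A fit with mitochondrially encoded genes left out is among the alternatives.

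The levels of the members spanned from TXNIP to GSS. TXNIP, which binds and restrains thioredoxin, had 308 to 418 FPKM and made up 26.1% of the summed FPKM of the 36 members. It was followed by the secreted glutathione peroxidase GPX3 at 116 to 229 FPKM, the microsomal glutathione transferase MGST3 at 85.6 to 171 FPKM, the mitochondrial peroxiredoxin PRDX3 at 97.2 to 129 FPKM and the mitochondrial transhydrogenase NNT at 71.3 to 102 FPKM. TXNIP was the one member whose range did not reach that of the member next in order. All other neighbours in the order overlapped. The mitochondrial dismutase SOD2 averaged 70.6 FPKM over the 6 samples, against 18.9 FPKM for the cytosolic SOD1 and 14.5 FPKM for the extracellular SOD3. At the other end stood the inducible haem oxygenase HMOX1 (mean of 1.43 FPKM), the peroxidase GPX7 of the endoplasmic reticulum (1.14 FPKM) and the glutathione synthetase GSS (0.928 FPKM).

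**Figure D2:**
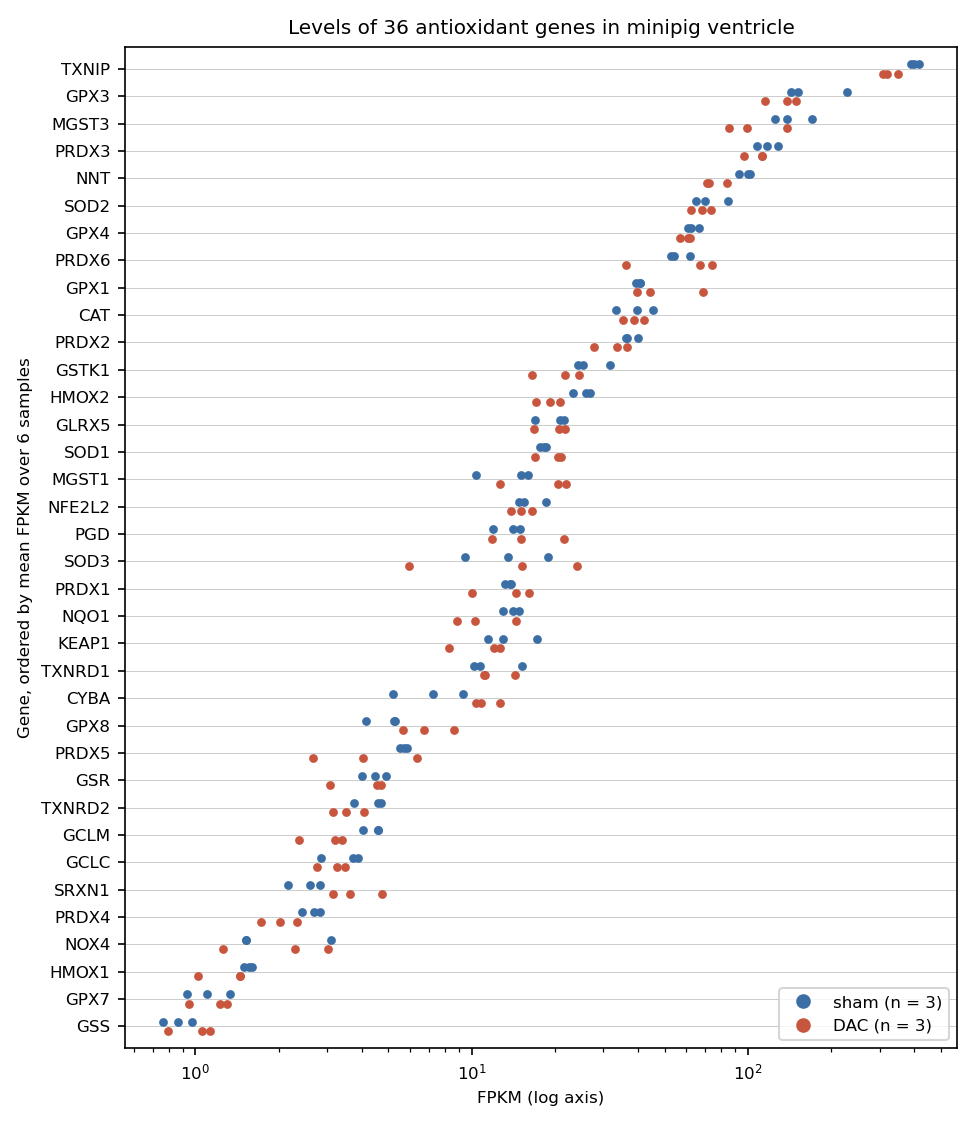
FPKM of the 36 members in each of the 6 samples (log axis), ordered by the mean over all samples, with sham points above and DAC points below each line. TXNIP stands alone at 308 to 418 FPKM, and the lowest member, GSS, has 0.762 to 1.13 FPKM.

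The summed FPKM of the 36 members was 1555, 1433 and 1503 in sham 1 to 3 and 1226, 1328 and 1350 in DAC 4 to 6. Every DAC sum was below every sham sum. Without TXNIP, the sums were 1041 to 1137 in the sham and 906 to 1042 in the DAC samples, so the groups touched. Without the 5 members with the highest FPKM, they were 549 to 568 in the sham and 487 to 594 in the DAC samples.

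NFE2L2 and KEAP1 are the NRF2 regulators among the members, and their RNA was measured here, not the activity of the NRF2 protein. NFE2L2, the gene of NRF2, was at 16.3 ± 1.99 FPKM in the sham and 15.2 ± 1.29 FPKM in the DAC group, with a 95% interval of the log2 fold change from -0.39 to 0.19. KEAP1, which directs NRF2 to degradation, was at 17.3, 11.4 and 13.0 FPKM in the sham and 8.25, 12.7 and 12.1 FPKM in the DAC samples. The groups of both genes overlapped. The interval of KEAP1 was from -0.79 to 0.16.

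Glutathione is made by glutamate-cysteine ligase, a dimer of the catalytic subunit GCLC and the modifier subunit GCLM, and by the synthetase GSS. GCLM (ENSSSCG00000037549, chromosome 4 from 123371193 to 123390135) was at 4.06, 4.59 and 4.60 FPKM in the sham samples and at 3.40, 2.38 and 3.19 FPKM in the DAC samples. All DAC samples lay below all sham samples, and DAC 5 was the lowest. GCLM fell by 0.45 ± 0.13 log2 units (SE), with an interval from -0.76 to -0.14 and a limma adjusted P of 0.508. GCLC was at 2.84, 3.71 and 3.89 FPKM in the sham and at 3.49, 2.76 and 3.26 FPKM in the DAC samples, which overlapped, with an interval from -0.42 to 0.22. The difference between the changes of both subunits was not tested. As a description, chosen after the values were seen, the ratio of GCLM to GCLC was 1.43, 1.24 and 1.18 in the sham and 0.974, 0.860 and 0.977 in the DAC samples. The FPKM of GCLM thus exceeded that of GCLC in each sham sample and fell short of it in each DAC sample. FPKM rests on the transcript length taken for each gene, so a ratio of 1 does not mark equal amounts of the subunits. Glutathione reductase GSR, which regenerates glutathione with NADPH, was at 4.45 ± 0.442 FPKM in the sham and 4.11 ± 0.913 FPKM in the DAC group. GSS was at 0.762 to 0.971 FPKM in the sham and 0.793 to 1.13 FPKM in the DAC samples and was not tested.

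The haem oxygenases split haem into biliverdin, iron and carbon monoxide. HMOX2 (ENSSSCG00000007942, chromosome 3 from 37831434 to 37868128), the constitutive enzyme, was at 25.9, 26.8 and 23.2 FPKM in the sham and at 19.3, 20.9 and 17.0 FPKM in the DAC samples. Each DAC sample was below the lowest sham sample. HMOX2 fell by 0.39 ± 0.12 log2 units (SE), with an interval from -0.67 to -0.12 and a limma adjusted P of 0.508. The annotated span of HMOX2 overlaps that of CDIP1 and NMRAL1 on the opposite strand, and how reads in shared stretches were assigned is not given in the sources used here. HMOX1 (ENSSSCG00000039745), which lies on an unplaced scaffold, was at 1.56, 1.5 and 1.61 FPKM in the sham and at 1.02, 1.45 and 1.45 FPKM in the DAC samples. These groups did not overlap either, though DAC 5 and 6 lay close under the sham samples, and the log2 fold change of -0.15 did not pass the test, with an interval from -0.44 to 0.14. NQO1, a quinone reductase and a classic target of NRF2, was at 14.8, 13.0 and 14.1 FPKM in the sham and at 10.3, 8.86 and 14.5 FPKM in the DAC samples. DAC 6 lay within the sham range, and the log2 fold change was -0.32 with an interval from -0.73 to 0.093.

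In the thioredoxin system, an inhibitor fell and a repair enzyme rose. TXNIP (ENSSSCG00000031262, chromosome 4 from 99348575 to 99352241) was at 418, 392 and 401 FPKM in the sham and at 320, 349 and 308 FPKM in the DAC samples. Every DAC sample was below every sham sample. TXNIP fell by 0.31 ± 0.099 log2 units (SE), with an interval from -0.54 to -0.076 and a limma adjusted P of 0.522. After quantile normalization the log2 fold change was -0.18 and no longer past the threshold, and the call was also lost without sham 1, without sham 3 or without DAC 6. SRXN1 (ENSSSCG00000023298, chromosome 17 from 34582440 to 34589308), the sulfiredoxin that repairs overoxidized peroxiredoxins, was at 2.83, 2.61 and 2.16 FPKM in the sham and at 3.14, 4.75 and 3.62 FPKM in the DAC samples. All DAC samples were higher, with DAC 5 the highest. SRXN1 rose by 0.44 ± 0.15 log2 units (SE), with an interval from 0.082 to 0.81 and a limma adjusted P of 0.548. The call was lost without DAC 5, where the log2 fold change was 0.31, and without sham 3. TXNRD1, the cytosolic thioredoxin reductase, was at 12.1 ± 2.79 FPKM in the sham and 12.2 ± 1.88 FPKM in the DAC group. The mitochondrial reductase TXNRD2 was at 4.34 ± 0.522 FPKM and 3.58 ± 0.463 FPKM, with an interval from -0.52 to 0.080.

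**Figure D3:**
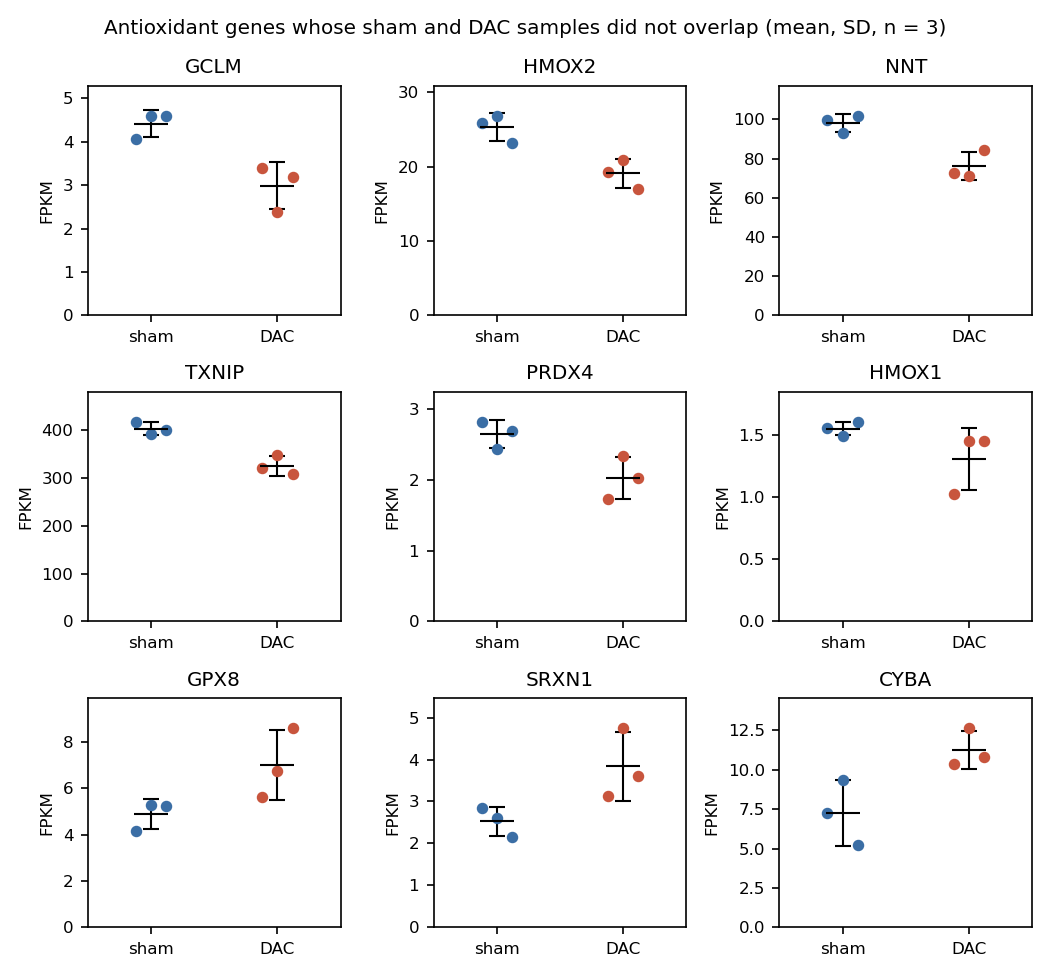
FPKM in each sample of the 9 members whose sham and DAC samples did not overlap (points; horizontal mark, mean; bar, SD; n = 3 per group; each axis starts at 0). GCLM, HMOX2, NNT, TXNIP, PRDX4 and HMOX1 are lower in the DAC group, and GPX8, SRXN1 and CYBA are higher.

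None of the 4 dismutase and catalase genes was a DEG, and the mean of log2(FPKM + 1) was lower in the DAC group for SOD2, CAT and SOD3. SOD1 was at 18.2 ± 0.436 FPKM in the sham and 19.5 ± 2.19 FPKM in the DAC group, with an interval of the log2 fold change from -0.18 to 0.36. SOD2 was at 73.2 ± 10.2 FPKM and 68.0 ± 5.81 FPKM, with an interval from -0.41 to 0.21. CAT, the catalase gene, had an interval from -0.35 to 0.30. These intervals hold changes in either direction, so equal levels were not shown. SOD3 varied widely between the minipigs, from 9.44 to 18.9 FPKM in the sham and from 5.92 to 24.1 FPKM in the DAC samples, and its interval ran from -1.13 to 1.06.

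Among the 5 glutathione peroxidases, GPX8 was the single DEG. GPX8 (ENSSSCG00000021973, chromosome 16 from 34335876 to 34342427), a peroxidase in the membrane of the endoplasmic reticulum, was at 4.15, 5.28 and 5.23 FPKM in the sham and at 5.62, 6.75 and 8.61 FPKM in the DAC samples. The groups did not overlap, and DAC 4 lay closest to the sham samples. GPX8 rose by 0.43 ± 0.16 log2 units (SE), with an interval from 0.045 to 0.82 and a limma adjusted P of 0.568. The call was lost without sham 1, without DAC 5 and without DAC 6. GPX1, the cytosolic enzyme, was at 40.6, 40.6 and 39.5 FPKM in the sham samples, and at 44.3, 68.9 and 39.7 FPKM in the DAC samples. DAC 5 alone stood far above the others, and the interval of the log2 fold change ran from -0.18 to 0.76. GPX3 was at 229, 152 and 144 FPKM in the sham and at 150, 116 and 139 FPKM in the DAC samples, with sham 1 above all others and an interval from -0.82 to 0.12. GPX4, which protects membranes from lipid peroxides, was at 63.3 ± 3.21 FPKM and 59.6 ± 2.63 FPKM, with an interval from -0.31 to 0.15. GPX7 was at 1.12 ± 0.203 FPKM and 1.16 ± 0.187 FPKM.

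No peroxiredoxin was a DEG, and the mean of log2(FPKM + 1) was lower in the DAC samples for 5 of the 6. Of all genes tested, 53.4% had a lower mean. The class had a median log2 fold change of -0.17. Over the alternatives this median was between -0.21 without sham 2 and -0.077 without DAC 4. PRDX4 (ENSSSCG00000012171, chromosome X from 19797596 to 19823406), the peroxiredoxin of the endoplasmic reticulum, was at 2.82, 2.43 and 2.69 FPKM in the sham and at 1.73, 2.33 and 2.02 FPKM in the DAC samples. The groups did not overlap, and the log2 fold change of -0.27 had an interval from -0.55 to 0.0081. PRDX3, the peroxiredoxin of mitochondria, was at 118 ± 10.3 FPKM in the sham and 108 ± 9.0 FPKM in the DAC group. The cytosolic PRDX1 was at 10.0, 14.5 and 16.1 FPKM in the DAC samples around a sham mean of 13.6 ± 0.342 FPKM. PRDX6, which uses glutathione, was likewise at 36.4, 67.2 and 74.0 FPKM in the DAC samples, against 53.8, 52.8 and 61.7 FPKM in the sham samples. In both genes, DAC 4 lay below and DAC 6 above every sham sample. PRDX2, a cytosolic peroxiredoxin, was at 37.5 ± 2.15 FPKM and 32.7 ± 4.54 FPKM, and PRDX5 at 5.68 ± 0.163 FPKM and 4.35 ± 1.86 FPKM.

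NADPH for both thiol systems comes in mitochondria in part from NNT, which uses the proton gradient. In the cytosol it comes in part from the pentose phosphate pathway with its enzyme PGD. NNT (ENSSSCG00000016877, chromosome 16 from 28157307 to 28250961) was at 99.8, 93.1 and 102 FPKM in the sham and at 72.5, 71.3 and 84.2 FPKM in the DAC samples. The highest DAC sample was below the lowest sham sample. NNT fell by 0.37 ± 0.11 log2 units (SE), with an interval from -0.62 to -0.11 and a limma adjusted P of 0.505. PGD was at 14.9, 14.1 and 12.0 FPKM in the sham and at 11.8, 21.7 and 15.1 FPKM in the DAC samples, which overlapped, and DAC 5 was the highest.

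None of the 3 glutathione transferases passed the test. MGST3 was at 126, 139 and 171 FPKM in the sham and at 99.7, 85.6 and 139 FPKM in the DAC samples, with an interval from -0.92 to 0.034. GSTK1, the transferase of mitochondria and peroxisomes, was at 27.1 ± 3.98 FPKM in the sham and 21.0 ± 4.0 FPKM in the DAC group, with an interval from -0.77 to 0.038. MGST1, a membrane-bound transferase, was at 13.8 ± 3.00 FPKM and 18.5 ± 5.06 FPKM, with an interval from -0.19 to 0.94. GLRX5, a mitochondrial glutaredoxin of iron-sulfur cluster assembly, was at 19.8 ± 2.45 FPKM and 19.8 ± 2.59 FPKM.

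The oxidase genes stand on the producing side of the balance. CYBA (ENSSSCG00000031493, chromosome 6 from 1015154 to 1021418), the membrane subunit p22phox that several NADPH oxidases require, was at 7.25, 9.33 and 5.20 FPKM in the sham and at 10.4, 12.7 and 10.8 FPKM in the DAC samples. All DAC samples were above all sham samples, and the sham samples were the more scattered. CYBA had the largest log2 fold change of the 35 members tested, 0.60 ± 0.19 (SE), with an interval from 0.14 to 1.05 and a limma adjusted P of 0.522. The call was lost without DAC 5, where the log2 fold change was 0.52. NOX4, the catalytic oxidase subunit that works with p22phox, was at 1.52, 3.09 and 1.52 FPKM in the sham and at 2.29, 1.25 and 3.02 FPKM in the DAC samples. The groups of NOX4 overlapped widely, with an interval from -0.57 to 0.70. SRXN1, GPX8 and CYBA, like the sum of the fibroblast markers, were higher in all 3 DAC samples. Within the DAC group, GPX8 and the fibroblast sum were highest in DAC 6, and SRXN1 and CYBA in DAC 5. The part of these cells in the changes was not tested. Of 12 leukocyte markers 9 were in the table with none at 0, and 1 of these was downregulated. The summed FPKM of the 9 was 49.7 to 53.9 in the sham and 40.2 to 54.4 in the DAC samples.

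GCLM, HMOX2 and NNT passed the threshold under every alternative in which they were tested, which was 12 alternatives for GCLM and 13 for the others. The upregulated members were less firm. Without DAC 5, the sample with the highest mitochondrial share, 0 members were upregulated DEGs and 6 were downregulated DEGs. Of the 11029 genes tested, 470 were upregulated and 485 downregulated without DAC 5, against 358 and 581 in all samples. SRXN1, GPX8 and CYBA also missed the threshold when limma did not share the variance between genes.

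The symbols TXN, TXN2, GLRX, GLRX2 and MSRA were absent from the table. Rows without a symbol lay at the RefSeq positions of several of them, and they are given apart from the members. The row ENSSSCG00000005453, at the position of TXN (chromosome 1 from 251263175 to 251277988), was at 8.62, 7.40 and 7.84 FPKM in the sham and at 10.2, 8.94 and 8.68 FPKM in the DAC samples. Its groups did not overlap, and the log2 fold change of 0.20 did not pass the test, with an interval from -0.063 to 0.46. The row ENSSSCG00000000144, which the table of identifiers pairs with TXN2, the thioredoxin of mitochondria, was at 18.0 ± 1.12 FPKM in the sham and 16.8 ± 0.512 FPKM in the DAC group. This row lies within the span of MYH9 on the same strand, which had a mean of 39.3 FPKM over the 6 samples. The assignment of shared reads is not given. The row ENSSSCG00000039731, at the position of GLRX, was at 4.71, 4.48 and 7.04 FPKM in the sham and at 4.30, 11.1 and 4.61 FPKM in the DAC samples, where DAC 5 stood apart. This row lies within the span of RHOBTB3 on the opposite strand. The row at the position of GLRX2 was at 0.903 to 1.88 FPKM in the 6 samples and also covers RO60. The row at the position of MSRA carries the symbol PRSS55, and no value is assigned to MSRA.

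Further genes of the same pathways were taken from 5 lists outside the members. For the counts of these lists, the share over all genes tested was 8.51% DEGs, 5.27% downregulated and 3.25% upregulated. Of 22 tested partners and further targets of NRF2, 4 were downregulated DEGs and 0 upregulated DEGs, with a median log2 fold change of -0.12. OSGIN1, an oxidative stress-induced growth inhibitor, was at 2.69, 4.16 and 4.19 FPKM in the sham and at 1.25, 1.01 and 1.53 FPKM in the DAC samples. OSGIN1 fell by 1.04 ± 0.17 log2 units (SE), at a limma adjusted P of 0.315. MAFF and MAFK, small MAF proteins with which NRF2 pairs on DNA, had log2 fold changes of -0.68 and -0.33. MAFF was at 17.3, 13.9 and 14.2 FPKM in the sham and at 8.99, 7.07 and 11.5 FPKM in the DAC samples. SQSTM1, the p62 protein that binds KEAP1, was at 187 ± 11.3 FPKM in the sham and 152 ± 2.32 FPKM in the DAC group. In each of these 4 genes, every DAC sample was below every sham sample. The call of MAFK was lost without sham 1, sham 3 or DAC 5, and that of SQSTM1 without sham 1 and after quantile normalization.

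Of 15 tested glutathione enzymes and transporters, 3 were downregulated and 0 upregulated DEGs. OPLAH, the 5-oxoprolinase that returns glutamate from glutathione breakdown, was at 29.3, 23.4 and 30.1 FPKM in the sham and at 17.6, 18.1 and 16.9 FPKM in the DAC samples. The DAC samples lay close together and far below the sham samples, and OPLAH fell by 0.62 ± 0.12 log2 units (SE), at a limma adjusted P of 0.379. GSTO1, the omega-class transferase, was at 38.0 ± 3.24 FPKM and 26.0 ± 3.82 FPKM, a log2 fold change of -0.54. GSTZ1, which also serves tyrosine breakdown, had a log2 fold change of -0.34. Of 15 tested further enzymes of NADPH supply given here, ME2, a mitochondrial malic enzyme that works mainly with NAD, and MTHFD2, a mitochondrial folate enzyme, were upregulated (0.31 and 0.38). Both calls were lost without sham 3, and that of MTHFD2 in 6 of its 12 alternatives, among them quantile normalization and leaving out sham 1, sham 2 or DAC 5. MTHFD2 was at 0.754, 0.719 and 0.805 FPKM in the sham and at 1.04, 1.86 and 1.07 FPKM in the DAC samples. It passed the filter of 1 FPKM through the DAC samples alone, so its call is not independent of the filter. The call of GSTZ1 was lost without sham 1, sham 2 or DAC 4.

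Of 33 tested thiol and selenium proteins, 3 were downregulated and 2 upregulated DEGs. ARRDC2, an alpha-arrestin related to TXNIP, was at 18.6, 24.0 and 22.3 FPKM in the sham and at 9.51, 11.1 and 9.24 FPKM in the DAC samples. ARRDC2 fell by 1.04 ± 0.13 log2 units (SE), at a limma adjusted P of 0.199. The other arrestins of the list had log2 fold changes of 0.13 for ARRDC3 and 0.063 for ARRDC4, and neither passed the test. SELENOO, a mitochondrial selenoprotein, and QSOX2, a sulfhydryl oxidase, were downregulated (-0.41 and -0.30), and TXNDC17 and TXNDC5, thioredoxin-like proteins of the cytosol and of the endoplasmic reticulum, were upregulated (0.39 and 0.28). Both of these calls were lost without sham 1, sham 3 or DAC 5 and when limma did not share the variance between genes, that of TXNDC17 also without DAC 4 and that of TXNDC5 also without DAC 6. The call of QSOX2 was lost without sham 2. Of 7 tested further oxidase subunits and monoamine oxidases, 0 were DEGs by limma at an unadjusted P under 0.05. No gene of the 5 lists had an adjusted P under 0.05.

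**Figure D4:**
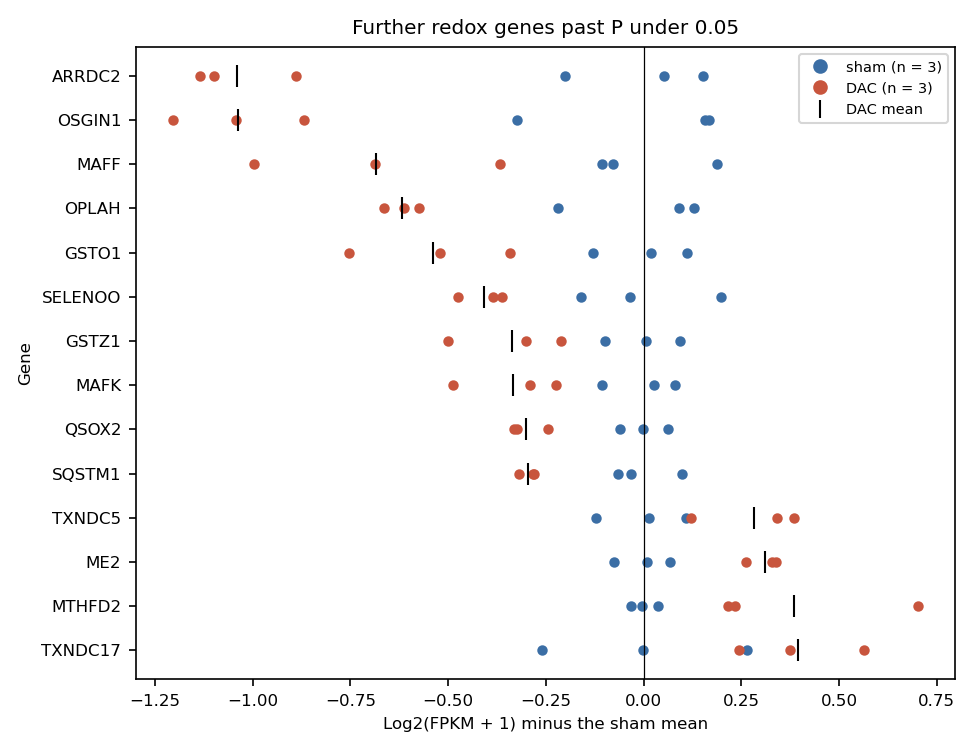
Log2(FPKM + 1) of each sample minus the sham mean for the 14 genes given from the 5 further lists with P under 0.05 (points, samples; black mark, DAC mean; n = 3 per group). ARRDC2 and OSGIN1 are farthest below the sham samples, both with a log2 fold change of -1.04, and the samples of TXNDC17 overlap.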

How the data were processed

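Gene expression was deposited by the authors as FPKM, in 1 table of 6 ventricular libraries. The submitters' processing notes name HISAT2 and the build susScr11. The program that computed FPKM, its version and its handling of strand and of shared reads are not given in the sources used here. No gene is listed whose highest value is under 0.5 FPKM. The depth is unknown, since no steps of whole reads were visible (at most 3 of 3753 low genes shared a ratio between samples), so precision rests on the spread between minipigs.

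Here, log2(FPKM + 1) was compared with R 4.3.3 and limma 3.58.1 (variance trend, two-sided, 95% intervals), with genes of at least 1 FPKM in at least 3 samples, and the Benjamini-Hochberg adjustment covered the 11029 genes tested. The threshold is the one the study names. Figures used Python 3.11.15 and matplotlib 3.10.9. The fit was tested on simulated data with changes larger than that of any member, so the recovery of smaller changes was not tested.

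Members with P under 0.05 or with groups that did not overlap are given with their values in each sample, and from the further lists the genes with P under 0.05. In the list of NADPH supply, 1 gene is not reported here and its list's counts are without it, while the counts of the other lists are whole. Gene positions are those of the table, and members were matched by its symbols. For 35 of the 36 members, the row overlapped the RefSeq position of the symbol. The identifier table named 520 of the 2440 rows without a symbol, and these names were used for the further and marker lists and for the row of TXN2. Of the 36 members, 11 overlap another listed gene. The members and lists were chosen with earlier results of these data known. Alternatives were a minimum of 5 FPKM, no filter, a pseudocount of 0.1, median scaling, quantile normalization, leaving out mitochondrially encoded genes, the variance of each gene on its own, and leaving out each sample.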

Additional observations from a re-analysis of the deposited data

How the results depend on the processing

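The number of upregulated members, 3 in all 6 samples, was 0 when limma did not share the variance between genes. Leaving out each sample in turn gave 0 to 5, lowest without DAC 5 and highest without DAC 4. The cause was not tested. Of all genes tested, 470 were upregulated without DAC 5 and 314 without DAC 4, against 358 in all samples. The number of downregulated members, 4 in all samples, was between 3 and 6 over all alternatives, and the median log2 fold change of the members was between -0.16 and -0.05. Between 359 and 674 of all genes tested were downregulated under the alternatives. No log2 fold change of the 9 members and 14 further genes given with values in the report changed its direction under any alternative. Of their 293 values under the alternatives, 39 were no longer past the threshold and 2 were newly past it. The shares of all genes called moved as well: 438 genes were upregulated and 474 downregulated after median scaling, against 358 and 581 without it, and 502 and 408 when mitochondrially encoded genes were left out. No read counts are behind these values, so the limit for genes near 1 FPKM, such as HMOX1, GPX7 and GSS, cannot be stated.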

Other observations

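Members that varied alike over the 6 samples are given as a description, with no test, since the samples share the split into groups. HMOX2 and TXNIP had a Pearson correlation of 0.936 over the 6 samples, PRDX4 and TXNRD2 of 0.956, SRXN1 and CYBA of 0.873, and GPX8 and MGST1 of 0.903.

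XDH, the gene of xanthine oxidoreductase, was chosen after its values were seen. It varied between single minipigs more than between the groups, with 27.5, 0.920 and 17.8 FPKM in the sham and 15.8, 0.423 and 2.04 FPKM in the DAC samples. Its log2 fold change had a 95% interval from -4.11 to 1.56.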
